A study of Mus musculus with 40 samples.

Results

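The Trav14 family of the mouse T cell receptor alpha locus (Tcra) was followed through the Tcra and Trd repertoire tables, segment by segment. Its members were the V segments named Trav14, Trav14d or Trav14n with a number from 1 to 3 and no DV in the name, and they came to 8 of the 111 V segments listed in the Tcra tables. Trav14-1, Trav14-2 and Trav14-3 are called original copies here, Trav14d-1 and Trav14d-2 D copies, and Trav14n-1, Trav14n-2 and Trav14n-3 N copies. The number after the hyphen is called the subgroup. They were chosen by symbol and not by a measured value, though with earlier results of these data known.

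The series asks what a CTCF binding site at the Tcra enhancer Ea, named EACBE in the labels, does in Tcra rearrangement. CTCF binds DNA and holds the ends of chromatin loops, and Ea is the enhancer downstream of the Tcra constant region that drives the locus in developing T cells. Thymocyte RNA from EACBE-/- mice and from wild-type (EACBE+/+) mice was copied by 5′ RACE, a method that reads receptor transcripts without primers for single V segments. Both groups were C57BL/6 mice of 4 to 8 weeks, and the material was whole thymocytes with no sort named. Each genotype had 2 libraries for Tcra and 2 for Trd, 8 of the 40 samples in the series. The labels do not say whether the replicates came from separate mice, so p-values measure only the spread between these libraries. The deleted site lies outside the counted segments, so no count checks the genotype labels, and with receptor segments alone the cell type could not be checked against markers.

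A T cell receptor alpha chain is made by joining 1 V segment to 1 J segment, and the mouse Trav array holds families repeated by large duplications, which the letters d and n in segment names mark. Joining can be repeated on the same chromosome: early joins pair V segments near the J array with J segments at its 5′ end, and later joins replace them with V segments farther away and J segments farther 3′. The D and J segments of the delta locus (Trd) lie between the Trav and the Traj arrays, and some V segments, marked DV, serve both receptors.

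Tcra tables held 19085 and 163953 counts in the EACBE-/- libraries of replicates 1 and 2, against 10694 and 172388 counts in the wild-type ones. Replicate 2 was thus the deeper library in both genotypes, and replicates of a genotype differed by more than counting noise (chi-square 4712 in EACBE-/- and 3197 in wild type, each on 110 degrees of freedom). In the test of V segments, 6 of 106 were called, which is 5.66%, all of them lower in EACBE-/-. Wilson 95% intervals given with shares cover counting error only.

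The members are spread over most of the Trav array on chromosome 14 (positions on mm10, from a RefSeq annotation of GRCm38.p6). The D copies lie farthest from the J array: Trav14d-1 at chr14:52855665-52856166 starts 1299 kb before Traj61, the first annotated Traj segment, and Trav14d-2 at chr14:52948668-52949169 starts 1206 kb before it. The N copies follow, with Trav14n-1 at chr14:53166677-53167178 (987.8 kb), Trav14n-2 at chr14:53259678-53260179 (894.8 kb) and Trav14n-3 at chr14:53370077-53370575 (784.4 kb). The original copies are nearest, with Trav14-1 at chr14:53554057-53554558 (600.4 kb), Trav14-2 at chr14:53640775-53641225 (513.8 kb) and Trav14-3 at chr14:53763196-53763694 (391.3 kb). Each interval is a V gene segment, which encodes most of the variable domain. The DV member of the family, Trav14d-3-dv8, lies between the D and the N copies at chr14:53078547-53079045 and is not counted among the 8. No source used here says how reads were divided between near-identical copies, so the value of a single copy is less certain than a sum over copies.

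As a sum, the family did not separate the genotypes. It held 11.9% and 7.87% of Tcra counts in the EACBE-/- libraries, against 10.8% and 7.45% in the wild-type libraries. The groups overlapped, and replicate 1 was the higher library in each genotype. In bulk RNA, more cells with a join and more transcript per cell cannot be told apart. The mean was 9.88% ± 2.83 in EACBE-/- and 9.14% ± 2.39 in wild type (SD, n = 2 each), a difference of 0.74 percentage points with an exact permutation p of 0.667, two-sided, where 0.333 is the smallest p that 2 libraries against 2 allow. In edgeR's quasi-likelihood test of V families, where 5 of 25 families were called (20%), the family sum differed by a log2 fold change of 0.11 (SE 0.303, adjusted p = 0.787). The sign of this change was negative when EACBE-/- replicate 1 was left out (-0.21) and when wild-type replicate 2 was (-0.13).

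Below this total the members differed in direction by subgroup. The most used member in EACBE-/- libraries was Trav14d-1, a D copy of subgroup 1, with 3.86% and 2.21% of Tcra counts in EACBE-/- libraries, against 1.92% and 1.24% in wild-type ones. Both EACBE-/- libraries lay above both wild-type libraries, and the share was 2.01 times the wild-type one in replicate 1 and 1.78 times in replicate 2. Its N counterpart Trav14n-1 held 0.65% and 0.348% in EACBE-/- libraries, against 0.15% and 0.206% in wild-type ones. The groups again did not overlap, but the wild-type value of replicate 1 rests on 16 counts (95% interval 0.0921% to 0.243%). The original Trav14-1 held 1.70% and 1.34% in EACBE-/- libraries, against 1.23% and 0.912% in wild-type ones, with no overlap. All 3 members of subgroup 1 were thus higher in EACBE-/- in both replicate numbers.

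Subgroup 2 lay the other way or did not separate. Trav14d-2 held 1.38% and 0.847% of Tcra counts in EACBE-/- libraries, against 1.79% and 1.20% in wild-type libraries. Trav14n-2 held 0.178% and 0.369% in EACBE-/- libraries, against 0.271% and 0.698% in wild-type libraries, and is the 1 member with more use in replicate 2 in both genotypes. The original Trav14-2, the most used member in wild type by its mean, held 1.67% and 1.17% in EACBE-/- libraries, against 2.18% and 1.22% in wild-type libraries. Each of these 3 was lower in EACBE-/- within each replicate number, yet the groups overlapped for all 3.

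Subgroup 3 has an N copy and an original copy, and they differed from each other. Trav14n-3 held 1.08% and 0.698% in EACBE-/- libraries, against 1.95% and 1.19% in wild-type ones, without overlap. Trav14-3, the member nearest to the J array, held 1.37% and 0.884% in EACBE-/- libraries, against 1.35% and 0.781% in wild-type ones. The values of Trav14-3 nearly coincided within each replicate number.

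**Figure D1:**
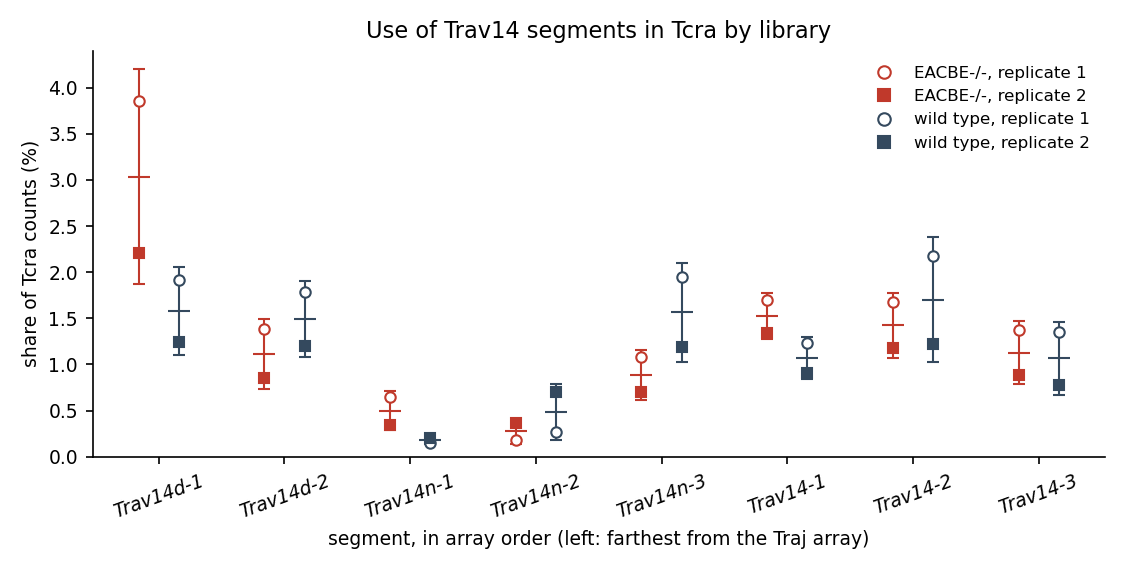
Share of Tcra counts (%, y axis) of the 8 Trav14 segments in array order (x axis), EACBE-/- in red at the left of each pair and wild type in grey-blue at the right. Open circles are replicate 1, filled squares replicate 2, horizontal bars the mean and whiskers the SD (n = 2). Trav14d-1, Trav14n-1 and Trav14-1 are higher in both EACBE-/- libraries and Trav14n-3 is lower.

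In the edgeR test across 106 V segments, 0 of the 8 members passed an adjusted p of 0.05, beside 5.66% of all V segments. At an unadjusted p under 0.05 there were 2, Trav14n-1 (log2 fold change 1.46, SE 0.524, adjusted p = 0.252) and Trav14d-1 (0.95, SE 0.394, adjusted p = 0.284), beside 17% of all V segments, and DESeq2 likewise called 0 members, beside 7.55% of all V segments, and had 2 at an unadjusted p under 0.05, beside 14.2%. The other log2 fold changes were 0.51 for Trav14-1 (SE 0.327), -0.82 for Trav14n-3 (SE 0.39), -0.83 for Trav14n-2 (SE 0.606), -0.42 for Trav14d-2 (SE 0.38), -0.25 for Trav14-2 (SE 0.387) and 0.09 for Trav14-3 (SE 0.4). The median over the members was -0.08, beside -0.13 over all V segments tested. Of the members, 3 were higher and 1 lower in EACBE-/- without overlap between libraries, beside 25.5% and 24.5% of all V segments. The 84 segments of other families that also have D or N copies had 0 called higher and 3 called lower, with a median of -0.15. Trav14d-3-dv8 held 1.29% and 0.744% in EACBE-/- libraries, against 1.19% and 0.799% in wild-type libraries, with a log2 fold change of 0.04 (SE 0.401, adjusted p = 0.966).

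The order of the members by mean share also differed. In EACBE-/- it ran from Trav14d-1 (3.03% ± 1.16, SD, n = 2) over Trav14-1 (1.52% ± 0.249), Trav14-2 (1.42% ± 0.352), Trav14-3 (1.13% ± 0.342), Trav14d-2 (1.12% ± 0.379) and Trav14n-3 (0.889% ± 0.27) to Trav14n-1 (0.499% ± 0.214) and Trav14n-2 (0.274% ± 0.135). In wild type it ran from Trav14-2 (1.70% ± 0.675) over Trav14d-1 (1.58% ± 0.478), Trav14n-3 (1.57% ± 0.535), Trav14d-2 (1.49% ± 0.413), Trav14-1 (1.07% ± 0.228) and Trav14-3 (1.06% ± 0.4) to Trav14n-2 (0.485% ± 0.302) and Trav14n-1 (0.178% ± 0.0398). From Trav14-1 to Trav14n-3 in EACBE-/-, and from Trav14-2 to Trav14d-2 in wild type, each step to the next member was smaller than the SD of either. Trav14n-1 and Trav14n-2 were the least used members in every library.

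The makeup of the family separated the genotypes more than its total did. Subgroup 1, a grouping chosen after the values were seen, made up 52.2% and 49.6% of Trav14 counts in EACBE-/- libraries, against 30.5% and 31.6% in wild-type libraries. The difference of 19.8 percentage points is larger than the SDs of 1.87 and 0.823, and its exact permutation p was 0.333, the smallest possible. With each V-J pair counted once it was 2.57 points, a count that follows depth because the deep libraries hold nearly all possible pairs. The values by kind of copy follow from the members' shares above and are given as a description. Subgroup 1 was 73.6% and 72.3% of D-copy counts in EACBE-/- libraries, against 51.8% and 50.8% in wild-type ones. It was 34.1% and 24.6% of N-copy counts in EACBE-/- libraries, against 6.32% and 9.84% in wild-type ones. Among original copies it was 35.8% and 39.5% in EACBE-/- libraries, against 25.9% and 31.3% in wild-type ones. None of these comparisons had overlapping libraries.

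With copies summed within each subgroup, edgeR called 8 of 54 V subgroups (14.8%), with 1.85% called higher. The Trav14-1 subgroup, singled out after the values were seen, had a log2 fold change of 0.84 (SE 0.318, adjusted p = 0.147) and was not called. DESeq2 gave it 1.00 with an adjusted p of 0.0143, in a fit that called 11 of 54 subgroups (20.4%), 3 of them higher. The Trav14-2 subgroup had -0.39 (SE 0.26) and the Trav14-3 subgroup -0.38 (SE 0.366), with adjusted p of 0.36 and 0.5 in edgeR.

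By kind of copy, D copies made up 44.1% and 38.8% of Trav14 counts in EACBE-/- libraries, against 34.2% and 32.8% in wild-type libraries, a difference of 7.97 points without overlap. N copies made up 16.0% and 18.0% in EACBE-/- libraries, against 21.8% and 28.1% in wild-type ones, a difference of -7.96 points without overlap, which was -4.84 points without wild-type replicate 2. Original copies made up 39.9% and 43.2% in EACBE-/- libraries, against 44.0% and 39.1% in wild-type ones, which overlapped. The exact permutation p was 0.333 for D and for N copies. Of the D copies, Trav14d-1 had the higher and Trav14d-2 the lower mean share of Tcra counts in EACBE-/-, so the D difference is that of Trav14d-1.

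The segments next to the members on the array were compared because the subgroups sit in repeated blocks. Subgroup 1 copies lie between a Trav13 and a Trav15 segment numbered 1, subgroup 2 copies between a Trav13 and a Trav15 segment numbered 2. All 6 neighbours of the subgroup 1 copies had a higher share in EACBE-/- in both replicate numbers, at 1.14 to 2.06 times the wild-type share, where 38.7% of all V segments were higher in both. They were Trav13d-1, Trav15d-1-dv6d-1, Trav13n-1, Trav15n-1, Trav13-1 and Trav15-1-dv6-1. Of the 6 neighbours of the subgroup 2 copies, 1 was higher in both replicate numbers, 4 were lower in both, as were 44.3% of all V segments, and 1 was mixed. The higher one, Trav15n-2, had only 17 and 6 counts in EACBE-/- libraries, against 6 and 6 in wild-type ones. In edgeR's test, 0 of these 12 neighbours were called and 1 had an unadjusted p under 0.05, while DESeq2 had 0 at either. Trav13d-1 had a log2 fold change of 0.82 (SE 0.343, adjusted p = 0.284) and Trav15n-1 one of 0.87 (SE 0.39, adjusted p = 0.336). Neighbouring Trav13 and Trav15 segments are themselves copies of each other across the blocks, so these values are not independent.

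The subgroup 3 members lie outside this arrangement. Trav14n-3 stands before Trav7-2, which was called lower in EACBE-/-, with 0.697% and 0.643% of counts in EACBE-/- libraries, against 2.12% and 2.01% in wild-type libraries (log2 fold change -1.63, SE 0.299, edgeR adjusted p = 0.0258). On its other side Trav13n-4 had a log2 fold change of -0.44 (SE 0.454, adjusted p = 0.656). Trav14-3 lies between Trav13-4-dv7 (0.21, SE 0.419, adjusted p = 0.813) and Trav3-4 (-0.85, SE 0.414, adjusted p = 0.376).

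**Figure D2:**
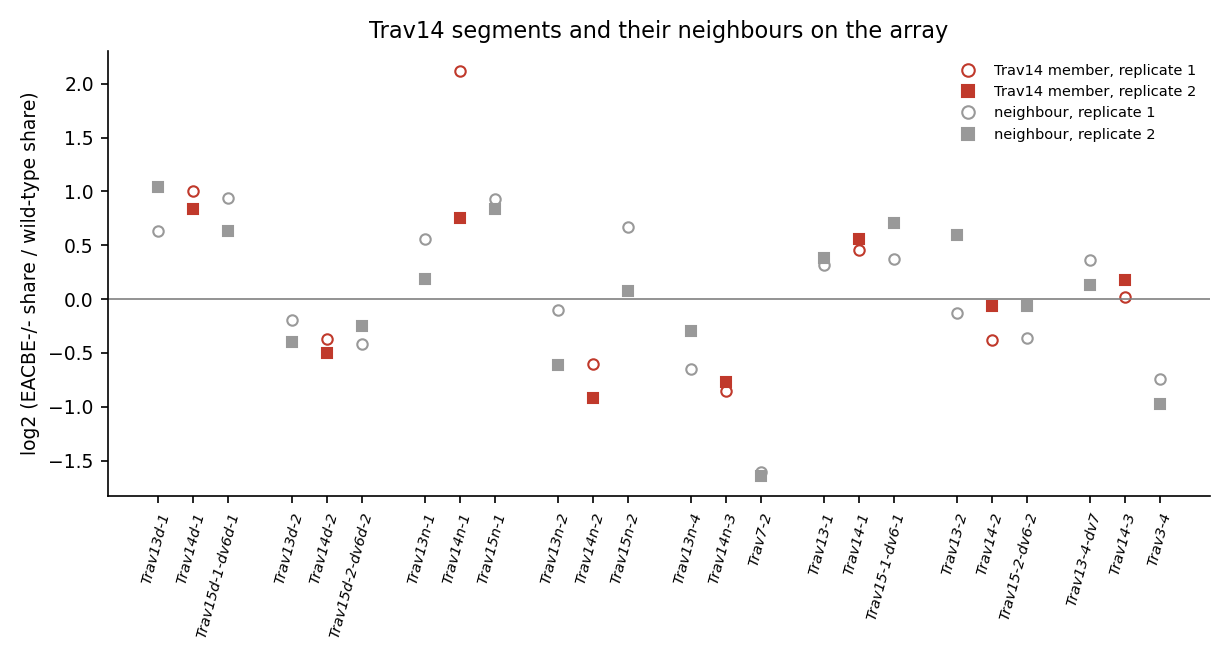
Log2 ratio of the EACBE-/- share over the wild-type share of Tcra counts (y axis) for each Trav14 segment (red) and the listed V segment on either side of it (grey), in array order (x axis). Circles are replicate 1 and squares replicate 2. The triplets around Trav14d-1, Trav14n-1 and Trav14-1 lie above 0 in both replicate numbers.

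Joins to the 3′ end of the J array made up a smaller part of Trav14 joins in both EACBE-/- libraries. The list of 3′ segments, Traj21 to Traj1, has 14 of the 43 Traj columns, the list of 5′ segments, Traj61 to Traj42, has 13, and the middle has 16. The 3′ list took 13.7% and 15.1% of Trav14 joins in EACBE-/- libraries, against 21.1% and 28.0% in wild-type libraries. The 5′ list took 36.9% and 40.5% in EACBE-/- libraries, against 30.1% and 32.5% in wild-type libraries. Neither comparison had overlapping libraries, the differences were -10.1 and 7.40 percentage points, and the exact permutation p was 0.333 for each, the smallest possible. The 3′ difference was -6.67 points without wild-type replicate 2. With narrower lists (Traj61 to Traj48) the 5′ difference was 2.47 points (exact permutation p = 0.667). When every V-J pair with a count weighed the same, the differences were -1.42 and 0.561 points. That weighting cannot measure the size of the shift. In replicate 2, 339 of the 344 possible Trav14 pairs had a count in EACBE-/- and all 344 in wild type. As a whole the family differed little from other V segments in this respect: its 3′ share minus that of all other joins was -1.05 and -1.87 points in EACBE-/- libraries, against -3.26 and -1.77 points in wild-type ones (difference 1.06, exact permutation p = 0.667). By kind of copy, the EACBE-/- gap minus the wild-type gap was -6.62 points for D copies, -4.89 for N copies and 10.0 for original copies (exact permutation p = 0.333 for each). These values are changes between genotypes and not the gaps themselves. In both genotypes the mean 3′ share of D copies lay above that of all other joins, and that of original copies lay below it.

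Within the family the 3′ difference lay with the D and N copies. D copies put 18.1% and 20.2% of their joins in the 3′ list in EACBE-/- libraries, against 32.3% and 41.6% in wild-type libraries. N copies put 14.0% and 17.3% there in EACBE-/- libraries, against 30.4% and 33.0% in wild-type libraries. Original copies put 8.63% and 9.70% there in EACBE-/- libraries, against 7.66% and 13.0% in wild-type libraries, which overlapped. The 3′ share of D copies exceeded that of original copies by 9.47 and 10.5 points in EACBE-/- libraries, against 24.7 and 28.5 points in wild-type ones. That gap, a measure added after the values were seen, was smaller by 16.6 points in EACBE-/- (exact permutation p = 0.333, the smallest possible).

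Single members showed the same split. Trav14d-1 put 16.0% and 17.6% of its joins in the 3′ list in EACBE-/- libraries, against 34.1% and 39.6% in wild-type ones, the widest difference of the family at -20.0 points. Trav14d-2 put 23.9% and 26.9% there in EACBE-/- libraries, against 30.4% and 43.6% in wild-type ones. Trav14n-3 put 12.1% and 18.4% there in EACBE-/- libraries, against 28.4% and 35.8% in wild-type ones. These far members had no overlap between genotypes, and the same holds for the thinly counted Trav14n-1 (difference -17.2 points) and Trav14n-2 (-16.1 points).

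The original copies differed less. Trav14-1 put 9.26% and 11.5% of its joins in the 3′ list in EACBE-/- libraries, against 11.4% and 17.9% in wild-type ones. Trav14-2 put 9.40% and 12.0% there in EACBE-/- libraries, against 4.72% and 13.1% in wild-type ones. Trav14-3 put 6.90% and 3.86% there in EACBE-/- libraries, against 9.03% and 7.13% in wild-type ones, the 1 original copy without overlap. In all, 6 of the 8 members, Trav14n-2 only by a near tie, were lower in 3′ share without overlap, beside 67% of the V segments outside the family. For the 5′ share, 4 members were higher without overlap (Trav14d-1, Trav14d-2, Trav14n-3 and Trav14-1), beside 45.4% of the V segments outside the family.

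The 3′ share followed the place on the array in every library. Across the 8 members, Spearman's rho between order on the array, from far to near, and 3′ share was -0.81 and -0.76 in EACBE-/- libraries, against -0.79 and -0.95 in wild-type libraries. For the 5′ share it was 0.88 and 0.76 in EACBE-/- libraries, against 0.62 and 0.69 in wild-type ones. Trav segments outside the family with 50 or more counts showed the same direction. Their rho for the 3′ share was -0.57 and -0.54 in EACBE-/- libraries, against -0.82 and -0.63 in wild-type ones. For the 5′ share it was 0.48 and 0.55 in EACBE-/- libraries, against 0.74 and 0.63 in wild-type ones. All these are descriptions over segments that share a library. The lowest and highest 3′ shares were 3.86% and 26.9% in EACBE-/- replicate 2, against 7.13% and 43.6% in wild-type replicate 2. Among the members, Trav14-3 at the near end had the highest 5′ share, with 57.5% and 72.5% of its joins in EACBE-/- libraries, against 60.4% and 67.6% in wild-type libraries. Its neighbour Trav13-4-dv7 was alike, with 66.8% and 70.0% in EACBE-/- libraries, against 70.0% and 61.6% in wild-type libraries.

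**Figure D3:**
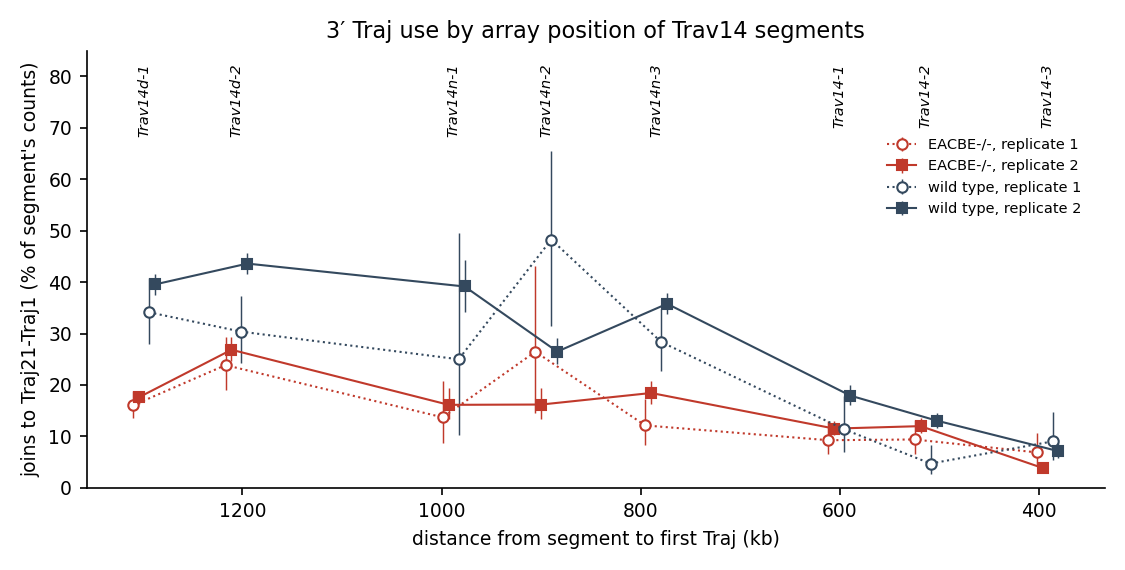
Share of each Trav14 segment's joins that use Traj21 to Traj1 (%, y axis) against its distance from the first Traj segment in kb (x axis, far to near), EACBE-/- in red and wild type in grey-blue, with points of a segment set slightly apart. Circles with dotted lines are replicate 1, squares with solid lines replicate 2, and whiskers are Wilson 95% intervals. The genotypes lie apart at the D and N copies, though 1 library of each nearly coincides at Trav14n-2, and close together at the original copies.

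In other families with D and N copies, the D and N copies also had a lower 3′ share in EACBE-/- without overlap. Original copies of those families were lower without overlap too, at 12.8% and 15.9% in EACBE-/- libraries, against 16.9% and 24.0% in wild-type libraries. In this they differed from Trav14 original copies, whose libraries overlapped. The 3′ share of Trav14 D copies minus that of the 28 other D copies was -1.52 and -3.97 points in EACBE-/- libraries, against -3.22 and 0.011 points in wild-type libraries (exact permutation p = 0.667). For N copies this gap to 24 others was -3.88 and -4.29 points in EACBE-/- libraries, against -6.94 and -11.0 points in wild-type ones. For original copies the gap to 32 others was -4.18 and -6.22 points in EACBE-/- libraries, against -9.26 and -11.0 points in wild-type ones. Trav14 N and original copies thus used 3′ Traj segments less than their counterparts in all 4 libraries, and by fewer points in EACBE-/- (difference 4.91 and 4.95 points, exact permutation p = 0.333 for each). In proportion the N copies were alike. The mean 3′ share in EACBE-/- was 0.493 times the wild-type one for Trav14 N copies and 0.485 times for other N copies. For original copies these ratios were 0.887 in Trav14 and 0.701 in the other families.

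By single Traj segment, the share among Trav14 joins was lower in EACBE-/- without overlap for 11 of the 14 3′ segments, beside 85.7% among joins of all other V segments. It was higher without overlap for 8 of the 13 5′ segments (76.9% among other joins) and for 4 of the 16 middle segments (50% among other joins, with 6.25% lower). For D copies alone the counts were 12 lower of 14, 10 higher of 13 and 7 higher of 16. Original copies alone had 3 lower of 14 and 5 higher of 13, with 2 of the 13 lower.

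**Figure D4:**
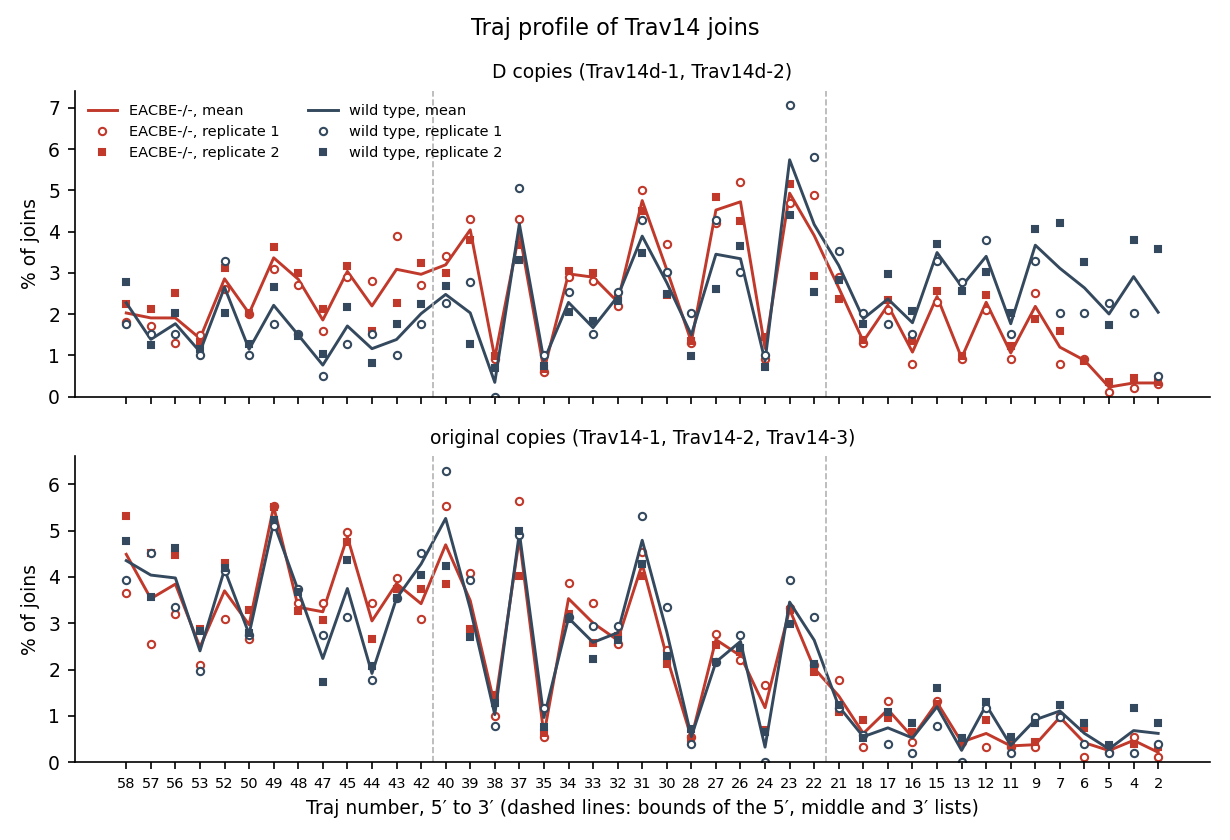
Share of joins (%, y axis) by Traj segment from the 5′ to the 3′ end (x axis) for D copies (top) and original copies (bottom), EACBE-/- in red and wild type in grey-blue. Lines are means of 2 libraries, circles replicate 1 and squares replicate 2. The EACBE-/- mean of D copies lies below 0.4% at Traj5, Traj4 and Traj2, where the wild-type mean is 2% or more, at Traj2 through replicate 2 (3.58%, against 0.505% in replicate 1).

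In the edgeR test of V family by Traj sums, 4 of the 43 Trav14 sums passed an adjusted p of 0.05, all lower, beside 9.56% of the 868 sums tested, or 9.33% lower and 0.23% higher. They are the 4 Traj columns nearest to the 3′ end of the array. With Traj2, the last column, the family had 5 and 38 counts in EACBE-/- libraries, against 5 and 264 in wild-type libraries (log2 fold change -2.29, SE 0.521, adjusted p = 0.0107). With Traj4 it had 11 and 54 counts in EACBE-/- libraries, against 12 and 304 in wild-type libraries (-1.97, adjusted p = 0.00752). With Traj5 it had 4 and 38 counts in EACBE-/- libraries, against 10 and 159 in wild-type ones (-2.03, adjusted p = 0.0171). With Traj6 it had 11 and 102 counts in EACBE-/- libraries, against 14 and 264 in wild-type ones (-1.26, adjusted p = 0.0404). As a share of Trav14 joins, Traj4 took 0.485% and 0.418% in EACBE-/- libraries, against 1.04% and 2.37% in wild-type ones. Traj2 took 0.22% and 0.294% in EACBE-/- libraries, against 0.432% and 2.05% in wild-type ones, so that its difference is much larger in replicate 2. The count of 4 became 2 without EACBE-/- replicate 1 (beside 7.13% of all sums), 1 without EACBE-/- replicate 2 (5.65%) and 0 without wild-type replicate 2 (1.01%). Leaving out wild-type replicate 1 gave 6, of which 2 were higher (17.8% of all sums), and DESeq2 called 0, beside 5.05% of all sums.

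Of the 344 possible pairs of a Trav14 member with a Traj segment, 241 had enough counts to be tested, and 7 passed, 4 higher and 3 lower in EACBE-/-. Across all V-J pairs, 3.35% of 2417 were called, 0.372% higher and 2.98% lower. All 4 higher pairs are of Trav14d-1, which is thus in 4 of the 9 pairs called higher in the whole of Tcra. Trav14d-1 with Traj39 had 35 and 146 counts in EACBE-/- libraries, against 4 and 25 in wild-type libraries (log2 fold change 2.79, SE 0.606, edgeR adjusted p = 0.00506). With Traj27 it had 30 and 193 counts in EACBE-/- libraries, against 7 and 53 in wild-type libraries (1.77, adjusted p = 0.0484). With Traj44 it had 20 and 61 counts in EACBE-/- libraries, against 2 and 17 in wild-type libraries (2.49, adjusted p = 0.0491). With Traj26 it had 42 and 165 counts in EACBE-/- libraries, against 6 and 76 in wild-type ones (1.68, adjusted p = 0.04997).

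The 3 pairs called lower use far members and Traj segments at the 3′ end. Trav14d-1 with Traj4 had 1 and 15 counts in EACBE-/- libraries, against 6 and 83 in wild-type ones (log2 fold change -2.58, edgeR adjusted p = 0.031). Trav14d-2 with Traj4 had 1 and 8 counts in EACBE-/- libraries, against 2 and 77 in wild-type ones (-2.87, adjusted p = 0.0484). Trav14n-3 with Traj9 had 0 and 10 counts in EACBE-/- libraries, against 5 and 79 in wild-type ones (-3.18, adjusted p = 0.0194). Trav14d-1 was therefore called in both directions, higher with 5′ and middle Traj segments and lower with Traj4. Over its 43 pairs, all tested, the median log2 fold change was 1.10, beside 0.09 over all pairs tested. The count of 7 pairs changed with any single library left out, as did the share called among all pairs. It was 0 in DESeq2, which called 18 of 2089 pairs (0.862%). At an unadjusted p under 0.05 in edgeR, 26 of the 241 Trav14 pairs were higher and 16 lower, beside 6.74% and 10.6% of all pairs. Of the higher ones, 19 were of Trav14d-1 and 4 of Trav14n-1, and of the lower ones, 9 were of Trav14n-3. Pairs of 1 segment are not independent of that segment's total.

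The Traj profile of the family was most like those of Trav13 and Trav12, with a mean Pearson r of 0.874 and 0.872 over the 4 libraries across 43 Traj segments, followed by Trav6 (0.817). The order was not the same in every library: in wild-type replicate 1, Trav12 (0.844) and Trav6 (0.827) stood above Trav13 (0.786). These are the highest of 11 other families with at least 200 counts in every library, and all profiles share the libraries and the Traj segments.

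Trav14 members were also counted in the Trd tables, which record V segments joined to Trdj segments. Trd tables held 5615 and 47158 counts in EACBE-/- libraries, against 1744 and 28093 in wild-type libraries. The family had 3 counts (0.0534%) in replicate 1 and 833 counts (1.77%, 95% interval 1.65% to 1.89%) in replicate 2 of EACBE-/-, against 2 counts (0.115%) and 427 counts (1.52%, 1.38% to 1.67%) in wild type. The replicates stood apart in both genotypes, and all Trav segments without DV did the same, at 0.196% and 12.7% of Trd counts in EACBE-/- libraries, against 0.287% and 10.5% in wild-type libraries. Only replicate 2 gives member values in Trd, so no genotype test was made there. In replicate 1 the EACBE-/- library had 1 count each of Trav14d-1, Trav14n-1 and Trav14-2, and the wild-type library 1 count each of Trav14d-1 and Trav14d-2. For a member with no count in replicate 1, taking 3 counts as the limit that a count of 0 allows gives up to 0.0534% of the EACBE-/- table and 0.172% of the wild-type table.

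In replicate 2 the members did not rank the same in Trd as in Tcra, in both genotypes, though the orders were partly alike. Spearman's rho between Trd and Tcra counts over the 8 members was 0.74 in EACBE-/-, against 0.48 in wild type. Trav14-2 had 259 Trd counts in EACBE-/-, against 121 in wild type, which was 31.1% and 28.3% of the family's Trd counts, where it held 14.9% and 16.4% of the family's Tcra counts. Trav14-3, nearest to the Trd segments, had 227 Trd counts in EACBE-/-, against 104 in wild type, which was 27.3% and 24.4% of the family in Trd, beside 11.2% and 10.5% in Tcra. Original copies together were 69.6% (66.4% to 72.7%) of Trav14 counts in Trd in EACBE-/-, against 65.1% (60.5% to 69.5%) in wild type, and 43.2% and 39.1% in Tcra. N copies were 6.72% in EACBE-/-, against 4.68% in wild type, and 18.0% and 28.1% in Tcra.

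Trav14n-3 was scarcer in Trd than in Tcra, with 7 Trd counts in EACBE-/-, against 4 in wild type, or 0.84% and 0.937% of the family, beside 8.86% and 15.9% in Tcra. Trav14d-1 had 118 Trd counts in EACBE-/-, against 83 in wild type, or 14.2% (12.0% to 16.7%) and 19.4% (16.0% to 23.5%) of the family. Its higher Tcra share in EACBE-/- was thus not seen among the Trd counts of these 2 libraries. Trdj2 took 23 of the 833 family counts in EACBE-/- (2.76%), against 21 of the 427 in wild type (4.92%), and the rest were joined to Trdj1. The DV member Trav14d-3-dv8 had 23 and 9 Trd counts (0.41% and 0.0191% of the table) in EACBE-/- libraries, against 5 and 6 counts (0.287% and 0.0214%) in wild-type libraries, so its share was the higher one in replicate 1.

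**Figure D5:**
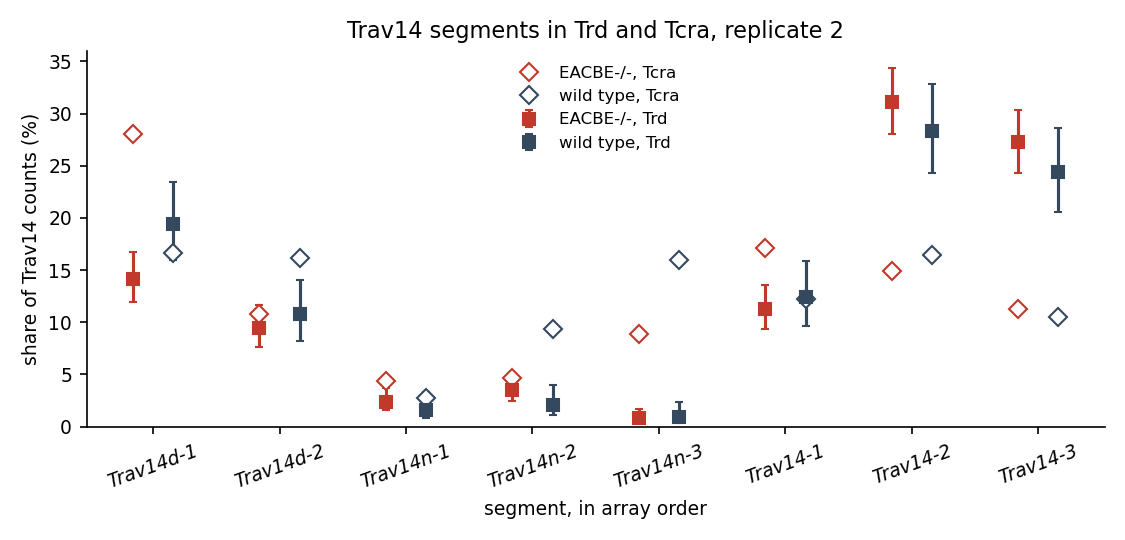
Share of all Trav14 counts (%, y axis) that each member holds in the Trd table (filled squares, with Wilson 95% intervals) and in the Tcra table (open diamonds) of replicate 2, by member in array order (x axis), EACBE-/- in red at the left and wild type in grey-blue at the right. Trav14-2 and Trav14-3 lead in Trd, and Trav14n-3 is near 1% there, in both genotypes.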

How the data were processed

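For each 5′ RACE library the authors deposited counts in whole numbers per pair of V and J segment. The sources used here do not name the tool that assigned segments or say whether reads or distinct receptors were counted. If counts are reads, abundant transcripts and amplification weigh on shares. The submitters' processing notes name Juicer 1.13.02, HiC-Pro 2.11.1, Bowtie2 (2.3.4.3 and 2.20.8), cutadapt 0.4.4, bedtools 2.26.0 and mm10 without roles.

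All 111 V symbols were matched to RefSeq for GRCm38.p6, the assembly of mm10. Counts were tested with the quasi-likelihood test of edgeR 4.0.16 in R 4.3.3, with library sizes set to the table totals, without TMM factors, with filterByExpr defaults (10 and 15) and Benjamini-Hochberg adjustment over all features of a fit, at 0.05. V segments listed in 1 replicate only were left out of the tests. For shares, an exact permutation test (two-sided) ran over the 4 libraries. Fits were also run on counts simulated with a single common dispersion and independent libraries. Those runs do not check the fits for same-numbered libraries that deviate together. Alternatives were DESeq2 1.42.0, TMM factors, libraries left out in turn, no filter, a replicate block, copies summed, narrower Traj lists and each pair counted once. Python 3.11.15, scipy 1.17.1, pandas 2.3.3 and matplotlib 3.10.9 did the rest.

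Members, lists and tests were chosen with earlier results of these data known. All members were named; pairs and Traj sums were named where they passed, up to 10; likeness named 3 families. The other 32 samples of the series were not analysed here.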

Additional observations from a re-analysis of the deposited data

How the results depend on the processing

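The lower 3′ and higher 5′ Traj shares of Trav14 joins kept their direction under all 10 alternatives tried for each. Not all of these could have reversed it. The replicate block leaves a difference of means unchanged, and omitting 1 library cannot reverse a difference between libraries that do not overlap. Narrower Traj lists, each kind of copy alone and equal weight for every V-J pair could have reversed it and did not. The size was not kept: under equal weight the differences were -1.42 and 0.561 points. Leaving out 1 library at a time gave 0 to 13 called pairs, 0 to 6 called Traj sums, a difference in family share of -1.27 to 2.74 percentage points, one in original-copy share of -2.42 to 2.39 points, and a log2 fold change of the family sum of -0.21 to 0.40. By member, log2 fold changes were -0.62 to 0.21 for Trav14-2, -0.26 to 0.52 for Trav14-3, -1.47 to 0.0297 for Trav14n-2, 0.30 to 0.74 for Trav14-1, 0.49 to 1.30 for Trav14d-1, -0.81 to -0.10 for Trav14d-2, 0.95 to 1.85 for Trav14n-1 and -1.16 to -0.43 for Trav14n-3; the N share differed by -11.1 to -4.84 points. Called pairs were 11 with TMM factors (beside 4.43% of all pairs) and 0 with DESeq2 (0.862%). With segments listed in 1 replicate kept, 1 pair was called (1.19%). Called Traj sums were 0 with DESeq2 (beside 5.05% of all sums) and 1 with such segments kept (4.92%). With D copies only, the 3′ share of Trav14 minus other joins differed between genotypes by -6.62 points, with N copies only by -4.89 and with original copies only by 10.0. With each V-J pair counted once, the difference was -1.30 points in D share, 1.88 in N share and 2.57 in subgroup 1 share; the deep libraries hold nearly all possible pairs, so that this count follows depth. The Trav14-1 subgroup sum, an alternative chosen after seeing the data, was called by DESeq2 (1.00), beside 20.4% of all subgroups. The shared replicate numbers are not said to mark a batch, but same-numbered libraries deviated together (r = 0.74 over 106 V segments). With the replicate number as a block, 6 members were called (3 higher, 3 lower), 68 of 241 pairs, 24 of 43 Traj sums, the family sum (0.10) and the Trav14-1 subgroup sum (0.80), while 46.2% of all V segments, 64% of all families, 70.4% of all subgroups, 29.6% of all pairs and 46.9% of all Traj sums were called. Depth left 241 of the 344 pairs testable.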
